A study of Homo sapiens with 4 samples.

Results

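NRAS, EGFR and 8 feedback inhibitors of the epidermal growth factor receptor and of ERK were followed, transcript by transcript, in H1299 cells treated with 5 μM HgCl2 for 48 h and in control cells treated with the solvent, EtOH. The 10 genes were taken by symbol: NRAS, which carries an activating mutation in this cell line, EGFR, the receptor inhibitor ERRFI1, the ERK phosphatases DUSP4, DUSP5 and DUSP6, and the inhibitors SPRY2, SPRY4, SPRED1 and SPRED2. ERRFI1 was selected on its difference between HgCl2 and EtOH in an earlier fit of the same counts, so its values are a description, and the other genes were chosen by function with earlier results of these data known. The genes have 43 of the 227368 listed transcripts. Of these, 20 had a count in any column, and 16 had a mean FPKM (fragments scaled to transcript length and library depth) above 1 in EtOH or in HgCl2 and were examined further.

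H1299 cells are a long-established line from a human lung carcinoma of the non-small-cell type, and both groups are cultures of it. Counts are relative to all counted RNA, so more RNA of 1 gene and less RNA of the others cannot be told apart. Each group has 2 columns of counts, labelled as replicates 1 and 2. The treatment text in the labels names HgCl2 for every sample, while the titles mark the controls as EtOH. The study describes its controls as cells treated with EtOH, the solvent. The total count lay between 4720978 and 5053120 per column. For transcripts that summed to 20 counts or more in a pair of columns, the variance between the EtOH columns was 0.505 times, and between the HgCl2 columns 0.516 times, what counting noise alone gives between independent libraries. The spread within a group was therefore smaller than sampling noise, and the mean of its columns was used as 1 sample. An edgeR quasi-likelihood fit with Benjamini-Hochberg adjustment, which takes the columns as independent replicates, was run beside this. Its p-values measure only a spread that is smaller than counting noise, so none is given as a test of the conditions. Every difference below is between 1 sample and 1 sample, and its 95% interval (exact, Clopper-Pearson, from mean counts) covers counting error only.

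EGF-family ligands bind EGFR, whose kinase activates RAS proteins such as NRAS, and RAS starts the RAF, MEK and ERK kinase cascade that drives growth and division. The cascade induces its own inhibitors. ERRFI1 (also called MIG6) binds the kinase domain of EGFR and related receptors and blocks it. SPRY and SPRED proteins act between the receptor and RAF, and SPRED proteins bring the RAS inactivator neurofibromin to the membrane. DUSP proteins remove the phosphates from ERK, DUSP6 in the cytoplasm and DUSP4 and DUSP5 in the nucleus. Since ERK signalling raises transcription of many of these genes, they are widely read as a record of the pathway's output.

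The counts were made per transcript, and the sources used here do not say how bases shared by several transcripts of a gene were counted. Of the 20 member transcripts with a count, 19 have bases that no other listed transcript covers, called own bases here. Of the 23 without a count, 8 have no own base, while 15 have some, up to 1720 bases. Counts of SPRY4 fell on its retained-intron transcript alone, and the protein-coding SPRY4-202 has no own base. Lengths in GENCODE 44 were within 0.1% of those behind the deposited FPKM for 15 of the 15 member transcripts that averaged 10 counts or more. Of the line's own markers, VIM had 501 to 628 counts per column, KRT18 18 to 31, and KRT8 53 and 58 in EtOH but 4 and 4 in HgCl2. Of 5 markers of blood, vessel and connective tissue cells, PTPRC and CD68 were at 0, and the list summed to 19 and 22 counts in EtOH and to 4 and 6 in HgCl2. Mitochondrial transcripts held 24.8% of the counts in EtOH and 17.9% in HgCl2, and retained introns 3.26% to 3.28% and 4.07% to 4.08%. The part of these shifts in the differences below was not tested.

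In ERRFI1 and DUSP5, stretches that a single transcript covers tell different RNA forms apart, and they are shown because the results for these genes turn on those forms. The last exon of ERRFI1-201 (ENST00000377482), the main coding transcript, ends in 1700 own bases. Their coding part, the last 214 coding bases before the stop codon at chr1:8013213-8013426 of GRCh38 on the minus strand, reads:

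ERRFI1-201: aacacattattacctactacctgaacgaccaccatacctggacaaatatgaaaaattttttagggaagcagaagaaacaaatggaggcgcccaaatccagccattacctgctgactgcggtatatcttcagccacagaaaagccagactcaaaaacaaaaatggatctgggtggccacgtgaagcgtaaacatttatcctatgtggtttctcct

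ERRFI1-202 (ENST00000467067) keeps the intron between exons 3 and 4 of ERRFI1-201, and this intron makes up its 911 own bases. The first 35 of them, at chr1:8015273-8015307 on the minus strand, are annotated as coding in ERRFI1-202, and the capitals mark the GT with which the intron begins:

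ERRFI1-202: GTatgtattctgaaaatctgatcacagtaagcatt

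DUSP5-202 (ENST00000468749) has no annotated coding sequence, and its own bases are a 58-base exon at chr10:110503433-110503490 on the plus strand, between exons 2 and 3 of the coding DUSP5-201 (ENST00000369583):

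DUSP5-202: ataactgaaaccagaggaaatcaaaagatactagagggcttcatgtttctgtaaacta

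**Figure D1:**
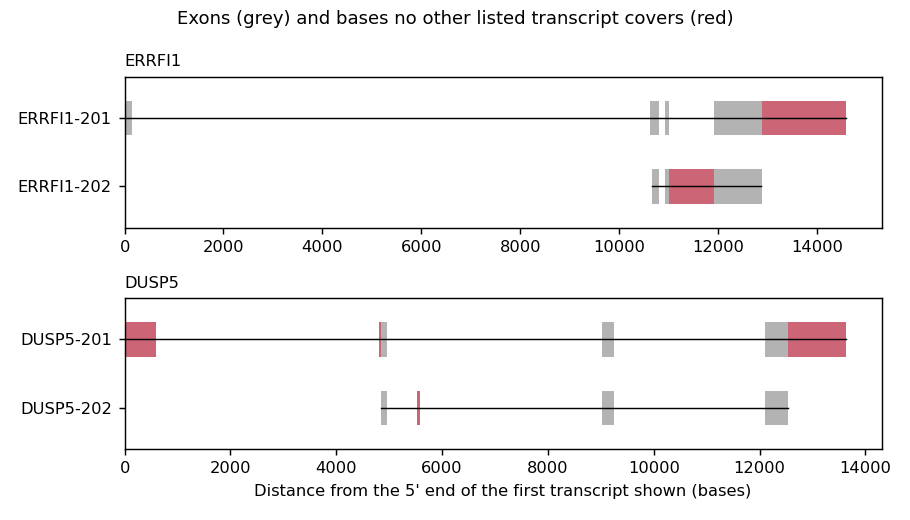
Exons of 2 transcripts each of ERRFI1 and DUSP5 against the distance in bases from the 5′ end of the first transcript, with exons in grey and own bases in red. Of the own bases of ERRFI1-201, 1700 lie at its 3′ end and 13 at its 5′ end, while those of ERRFI1-202 fill an intron. DUSP5-202 has 58 own bases in an exon that DUSP5-201 lacks.

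ERRFI1-201, the transcript that encodes the EGFR inhibitor, had 3204 and 3213 counts in EtOH and 6763 and 6795 in HgCl2. The HgCl2 values were more than double the EtOH values in every pairing of columns. Scaled by TMM, the log2 fold change was 1.22 (95% counting interval 1.16 to 1.28). Over the other scalings it lay between 1.05, with mitochondrial transcripts left out of the totals, and 1.40, with median ratios. Relative to the median of the well-counted transcripts, given below, it was 1.01.

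The intron-keeping ERRFI1-202 behaved differently. It had 150 and 145 counts in EtOH and 148 and 166 in HgCl2, so the unscaled counts of the groups overlapped. The TMM library size in HgCl2 was 0.9054 times that in EtOH, so this overlap is not one of scaled counts. The log2 fold change was 0.23 (-0.10 to 0.57). Per kilobase of own bases, ERRFI1-201 had 1873 counts in EtOH and 3957 in HgCl2, against 161.9 and 172.3 for ERRFI1-202. The share of ERRFI1-202 among the counts of both transcripts was 4.40% (exact binomial interval 3.73% to 5.14%) in EtOH and 2.26% (1.93% to 2.64%) in HgCl2. This share does not depend on how libraries are scaled, and the intervals do not overlap. The difference in ERRFI1 counts was thus seen in the main coding transcript, while none was detectable in the intron-keeping one at this depth. Another transcript, ERRFI1-205, a target of nonsense-mediated decay, had at most 3 counts in a column, and ERRFI1-203 and ERRFI1-204 had none.

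DUSP6, the cytoplasmic ERK phosphatase, had the larger ratio. DUSP6-201 (ENST00000279488), the full-length coding transcript on chromosome 12, had 406 and 421 counts in EtOH and 1127 and 1115 in HgCl2. The columns of the groups lay far apart, with a log2 fold change of 1.58 (1.42 to 1.75), and between 1.41 and 1.76 over the scalings. The shorter DUSP6-204, which starts within the gene and has no own base, had 13 and 15 counts in EtOH and 4 and 7 in HgCl2. Its log2 fold change of -1.20 (-2.94 to 0.30) has an interval that includes no difference, and without HgCl2 replicate 1 it was -0.86.

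DUSP5, a nuclear ERK phosphatase, was higher in HgCl2 on both counted transcripts, and to unequal extents. The coding DUSP5-201 had 1035 and 1062 counts in EtOH and 1762 and 1721 in HgCl2. Its log2 fold change of 0.88 (0.76 to 0.99) was under 2-fold by TMM and 1.05 by median ratios. DUSP5-202, whose own bases are the 58-base exon printed above, had 51 and 49 counts in EtOH and 225 and 240 in HgCl2. The log2 fold change was 2.36 (1.92 to 2.83), and its lowest value over the scalings was 2.19. The share of DUSP5-202 among the counts of both was 4.55% (3.40% to 5.96%) in EtOH and 11.8% (10.4% to 13.3%) in HgCl2. These shares do not correct for own bases, which are 58 in DUSP5-202 and 1716 in DUSP5-201. Per kilobase of own bases, DUSP5-202 was above DUSP5-201, at 862.1 against 611 in EtOH and 4009 against 1015 in HgCl2. By FPKM, over whole transcript lengths, DUSP5-202 was below DUSP5-201, at 11.1 against 77.1 in EtOH and 64.6 against 159.9 in HgCl2. The 58-base exon is shorter than a read, so which form was the more abundant cannot be told from these values. In DUSP5 the form without an annotated coding sequence gained share, whereas in ERRFI1 the intron-keeping form lost it.

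DUSP4, the other nuclear phosphatase of the set, went with neither. DUSP4-201 had 88 and 80 counts in EtOH and 68 and 64 in HgCl2. The columns did not overlap, but the log2 fold change of -0.20 had an interval of -0.69 to 0.28, so no difference was detectable at this depth. The 3 phosphatases therefore had log2 fold changes, summed over the transcripts of each gene, of 1.54 for DUSP6, 0.99 for DUSP5 and -0.20 for DUSP4.

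**Figure D2:**
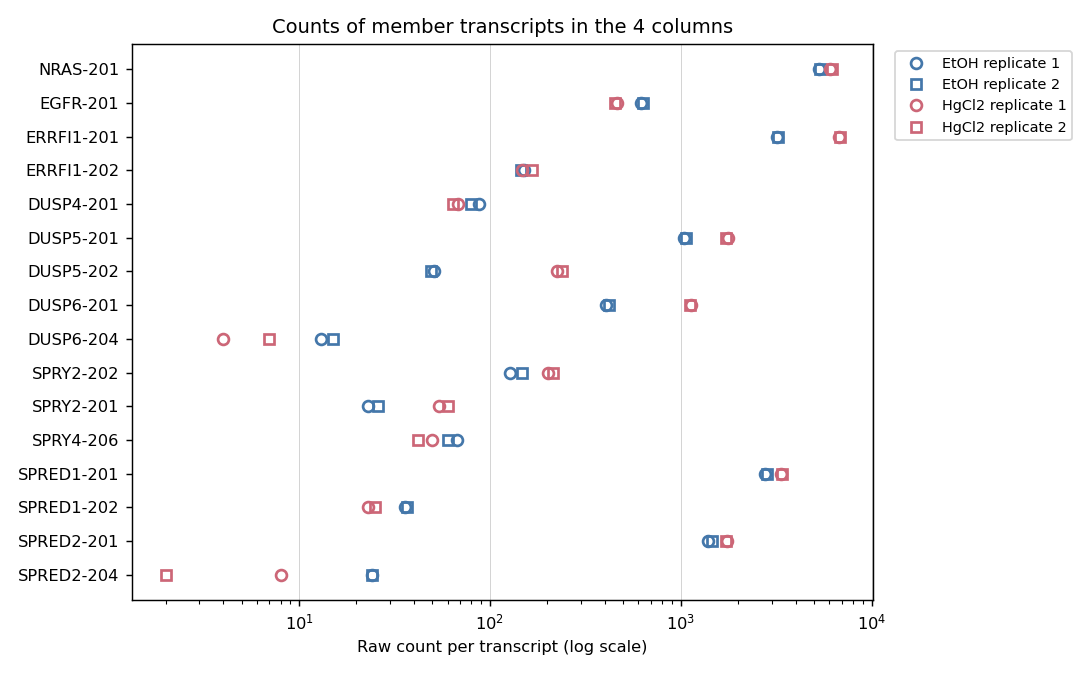
Raw counts, on a log axis, of the 16 examined transcripts in the EtOH columns (blue) and HgCl2 columns (red), with circles for replicate 1 and squares for replicate 2. Symbols of 1 group lie close together, and those of ERRFI1-201, DUSP5-202 and DUSP6-201 are far apart between the groups, while those of ERRFI1-202 overlap in these unscaled counts.

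SPRY2, an inhibitor between receptor tyrosine kinases and RAF, has 2 counted coding transcripts that share the coding exon and differ in the first exon, which makes up the own bases of each. SPRY2-202 (ENST00000377104), from the upstream start, had 128 and 147 counts in EtOH and 201 and 213 in HgCl2. SPRY2-201 (ENST00000377102), from the downstream start, had 23 and 26 in EtOH and 54 and 60 in HgCl2. Both forms were higher in HgCl2, with no overlap of columns. The log2 fold changes were 0.73 (0.42 to 1.05) for SPRY2-202 and 1.36 (0.66 to 2.11) for SPRY2-201. The share of SPRY2-201 was 15.1% (9.99% to 21.6%) in EtOH and 21.6% (16.8% to 27.0%) in HgCl2, and with these overlapping intervals a difference between the starts was not detectable.

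SPRY4, a close relative of SPRY2, could be read only through the retained-intron transcript SPRY4-206, with 67 and 60 counts in EtOH and 50 and 42 in HgCl2. The log2 fold change was -0.32 (-0.90 to 0.25), and the values say nothing of its coding transcripts, since its other 5 transcripts had no count.

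The SPRED genes, which inhibit RAS, moved little on the main transcripts. SPRED1-201 had 2761 and 2825 counts in EtOH and 3357 and 3393 in HgCl2, a log2 fold change of 0.42 (0.34 to 0.49). SPRED2-201 had 1389 and 1465 in EtOH and 1740 and 1718 in HgCl2, and the same log2 fold change of 0.42 (0.32 to 0.52). Relative to the median of the well-counted transcripts, both were 0.21. Each SPRED gene also has a short transcript that ends within an intron of the main one. SPRED1-202 had 36 and 37 counts in EtOH and 23 and 25 in HgCl2, a log2 fold change of -0.46 (-1.27 to 0.32). SPRED2-204 had 24 and 24 in EtOH and 8 and 2 in HgCl2, a log2 fold change of -2.12 (-3.87 to -0.70). Of all 16 transcripts SPRED2-204 rested on the fewest HgCl2 counts, and its value was -3.45 without HgCl2 replicate 1 and -1.44 without HgCl2 replicate 2. Its share with SPRED2-201 was 1.65% (1.06% to 2.45%) in EtOH and 0.288% (0.0937% to 0.672%) in HgCl2.

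**Figure D3:**
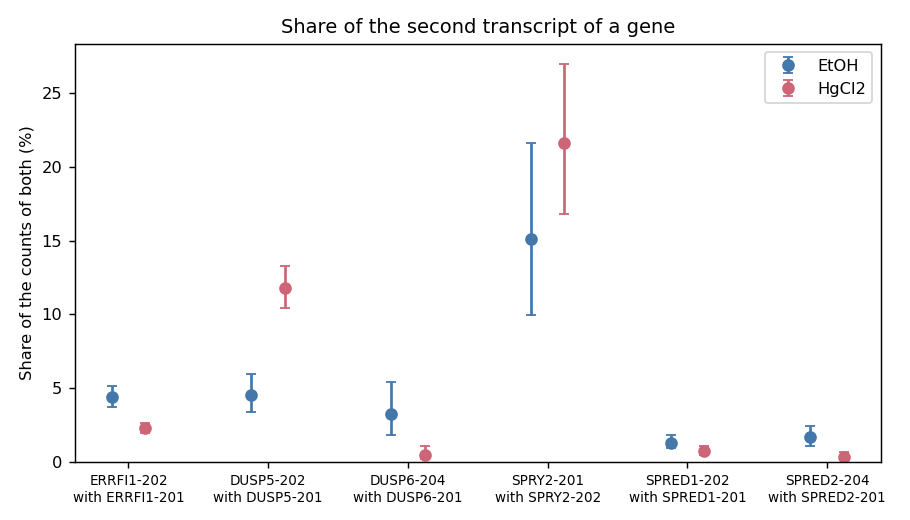
Percent of the counts of 2 transcripts of a gene that fall on the second one, in EtOH (blue) and HgCl2 (red), with exact binomial 95% intervals that cover counting error only. The share was lower in HgCl2 for ERRFI1-202, DUSP6-204, SPRED1-202 and SPRED2-204 and higher for DUSP5-202 and SPRY2-201, and the intervals overlap for SPRY2 and SPRED1.

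EGFR and NRAS, the receptor and the mutated RAS protein upstream of these inhibitors, differed less. EGFR-201 (ENST00000275493, chromosome 7) had 619 and 637 counts in EtOH and 464 and 453 in HgCl2. All HgCl2 values were lower, with a log2 fold change of -0.31 (-0.49 to -0.13) and of -0.52 relative to the well-counted median. Over the scalings the log2 fold change lay between -0.48 and -0.13, and it was nearest to no difference with median ratios. By the annotation used here EGFR-201 has only 92 own bases. Of the other EGFR transcripts, EGFR-203 and EGFR-207 had at most 1 count in a column and 6 had none, and SPRED2-203 likewise had at most 1. NRAS-201 (ENST00000369535, chromosome 1), the only listed transcript of its gene, had 5305 and 5343 counts in EtOH and 6065 and 6213 in HgCl2. All HgCl2 values were higher, with a log2 fold change of 0.35 (0.30 to 0.40) and of 0.14 relative to the well-counted median. Ordered by role, the RNA of the receptor was lower in HgCl2 and that of the RAS protein slightly higher. The inhibitors did not move together. ERRFI1, DUSP6, DUSP5 and SPRY2 (0.85 over its transcripts) were higher by a wider margin. SPRED1-201 and SPRED2-201 were only 0.21 above the well-counted median. For DUSP4 (-0.20) and the retained-intron transcript of SPRY4 (-0.32) no difference was detectable.

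The levels of the most counted transcript of each gene were compared as FPKM, which divides by the whole transcript length. If shared bases add little to the counts, FPKM understates transcripts with few own bases. The order depends on this choice of length. In EtOH the order was NRAS (224 FPKM), ERRFI1 (189), DUSP5 (77.1), SPRED1 (69.9), SPRED2 (57.5), DUSP6 (20.8), EGFR (11.5), SPRY2 (10.9), DUSP4 (2.75) and SPRY4 (2.16). The columns of neighbours did not overlap except for EGFR (11.4 and 11.7) and SPRY2 (10.2 and 11.7). In HgCl2 the order had ERRFI1 first, at 498 FPKM against 323 for NRAS, and SPRY2, at 20.6, above EGFR, at 10.5. By FPKM the other genes kept their places, with DUSP5 at 159.9, SPRED1 at 105.6, SPRED2 at 87.0, DUSP6 at 70.3, DUSP4 at 2.70 and SPRY4 at 1.96. On this scale DUSP6 went from 0.361 to 0.808 times the level of SPRED2. Counts per kilobase of own bases gave another order. ERRFI1-201 was above NRAS-201 in EtOH already, at 1873 against 1231, and in HgCl2 at 3957 against 1419. DUSP6-201 was below SPRED2-201 in EtOH, at 364.6 against 551.8, and above it in HgCl2, at 988.5 against 668.6. EGFR-201 was the highest of the most counted transcripts on that scale, at 6826 and 4984, on its 92 own bases.

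Of the 16 transcripts, 4 were at least 2-fold higher in HgCl2 (ERRFI1-201, DUSP5-202, DUSP6-201 and SPRY2-201) and 2 at least 2-fold lower (DUSP6-204 and SPRED2-204). Over all 17547 transcripts with a mean FPKM above 1 in a group, 19.4% were at least 2-fold higher and 34.3% at least 2-fold lower, most of them on few counts. With a mean over the 4 columns of at least 30 counts also asked, 4 of the 14 members left were higher and 0 lower, against 15.6% and 9.55% of all 7107 such transcripts. The median log2 fold change was 0.42 for these members and 0.21 for the 7107, which is the well-counted median used above, and 0.38 and -0.21 before that filter. The higher count includes ERRFI1, which was picked for its difference, so nothing is read from it about the set as a whole. No member changed sign under any of the 4 scalings. Relative to TMM, median ratios moved every log2 fold change by 0.18, total counts by -0.05 and total counts without mitochondrial transcripts by -0.17. Of all transcripts past 2-fold, 36.1% were higher in HgCl2, and 46.7% with limma on log2(FPKM + 1).

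**Figure D4:**
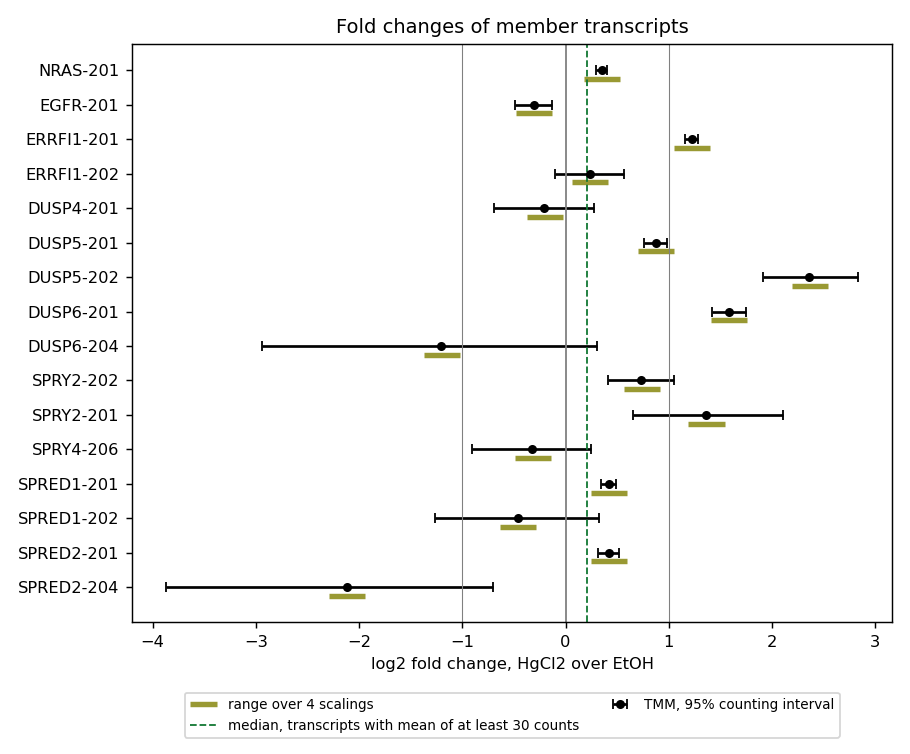
Log2 fold change, HgCl2 over EtOH, of the 16 examined transcripts scaled by TMM (black, with 95% counting intervals), and its range over 4 scalings (olive). Grey lines mark 0 and 2-fold, and the dashed line the median of 0.21 over transcripts averaging 30 counts or more; ERRFI1-201, DUSP5-202, DUSP6-201 and SPRY2-201 lie past 2-fold higher.

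Among the 2180 protein-coding transcripts that averaged 200 counts or more, where 67 were at least 2-fold higher and 40 at least 2-fold lower in HgCl2, DUSP6-201 ranked 8 from the highest log2 fold change and ERRFI1-201 ranked 24. DUSP5-201 ranked 116, SPRED2-201 617, SPRED1-201 624, NRAS-201 748 and EGFR-201 1871. Uniform scaling does not move these ranks. The transcripts just above ERRFI1-201 in log2 fold change belonged to RPL7L1 (1.25), LHFPL6 (1.26) and ASXL2 (1.28), and those just below to TAF8 (1.22), ENPEP (1.22) and MBOAT2 (1.20). This likeness rests on 2 groups alone, and ERRFI1-201 had over 4 times the counts of each of them.

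**Figure D5:**
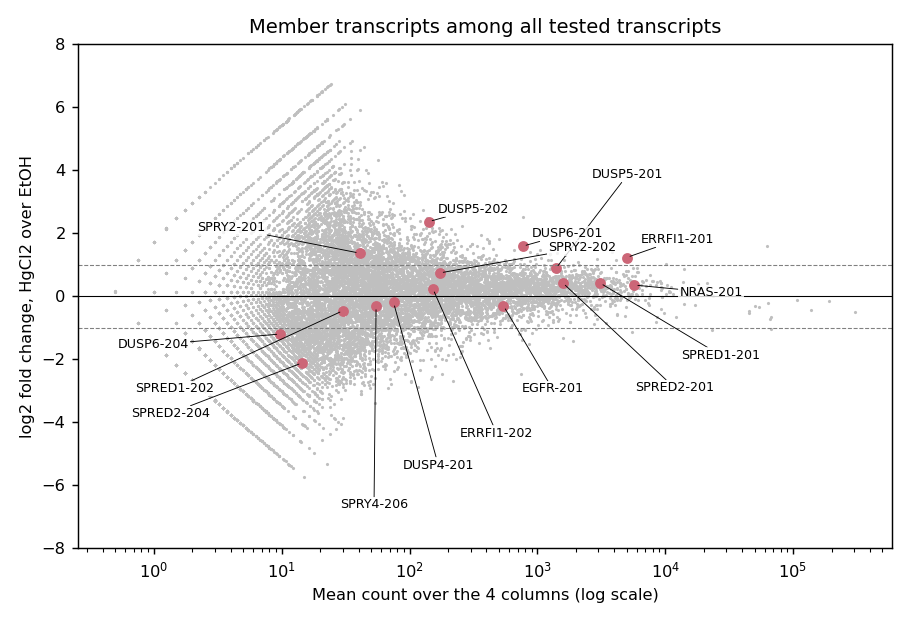
Log2 fold change, HgCl2 over EtOH, against the mean count over the 4 columns (log axis) for 15785 tested transcripts (grey) and the 16 member transcripts (red); 1762 transcripts with 0 counts in a group are not drawn. DUSP6-201 and ERRFI1-201 lie at the upper edge of transcripts with similar counts, while SPRED2-204 and DUSP6-204 lie within the wide spread of low counts.

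The 250 bases before the start site are shown for the genes with the largest well-counted ratios and for both counted starts of SPRY2, from the RefSeq table of GRCh38.p14, in lower case with motif matches in capitals. The table held 12 start sites for 8 of the 10 genes, without DUSP4 and DUSP5. The motifs searched on both strands were TGANTCA (AP-1), TGACGTCA (CRE), CCGGAAG (ETS) and TGACNNNGC (antioxidant response element). TGCNCNC, a loose form of the metal response element, was searched likewise, and its matches need not be such elements. The letters of these motifs can overlap.

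ERRFI1, chr1:8026310-8026559, minus strand: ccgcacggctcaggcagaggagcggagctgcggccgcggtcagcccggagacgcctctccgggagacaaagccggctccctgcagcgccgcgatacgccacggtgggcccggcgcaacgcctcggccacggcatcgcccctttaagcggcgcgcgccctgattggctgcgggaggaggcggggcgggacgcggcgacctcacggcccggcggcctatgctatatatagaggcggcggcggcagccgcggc

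DUSP6, chr12:89352502-89352751, minus strand: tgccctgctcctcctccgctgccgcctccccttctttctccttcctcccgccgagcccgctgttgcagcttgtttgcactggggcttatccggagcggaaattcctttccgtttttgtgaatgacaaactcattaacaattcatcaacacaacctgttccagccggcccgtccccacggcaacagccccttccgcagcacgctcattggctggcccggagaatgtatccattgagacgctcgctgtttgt

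SPRY2-202, chr13:80341127-80341376, minus strand: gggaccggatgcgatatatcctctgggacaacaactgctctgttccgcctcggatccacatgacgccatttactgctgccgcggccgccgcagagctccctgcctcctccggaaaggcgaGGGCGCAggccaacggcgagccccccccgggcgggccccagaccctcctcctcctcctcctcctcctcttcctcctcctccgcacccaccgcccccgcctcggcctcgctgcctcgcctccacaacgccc

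SPRY2-201, chr13:80339660-80339909, minus strand: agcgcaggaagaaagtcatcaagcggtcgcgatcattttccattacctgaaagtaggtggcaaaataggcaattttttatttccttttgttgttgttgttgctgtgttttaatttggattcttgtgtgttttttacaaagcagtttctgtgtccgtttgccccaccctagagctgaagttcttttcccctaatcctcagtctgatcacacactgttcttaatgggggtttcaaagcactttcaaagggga

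The windows of ERRFI1, DUSP6 and SPRY2-201 hold none of these letters, and that of SPRY2-202 holds 1 match to TGCNCNC, from 130 to 124 bases before the start. The share of G and C was 75.2% for ERRFI1, 57.2% for DUSP6, 70.4% for SPRY2-202 and 41.2% for SPRY2-201. Of all 35116 windows, 49.1% hold TGCNCNC, 10.9% TGACNNNGC, 8.52% CCGGAAG, 6.57% TGANTCA and 1.65% TGACGTCA. Of the 12 member windows, 4 hold TGCNCNC, 1 (SPRY4) TGACNNNGC and 1 (the downstream start of EGFR) TGANTCA, and 0 hold either of the others.

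The rest of the pathway was described with 6 lists of 68 genes and 587 transcripts, of which 56 were tested. EGF-family ligands had 3 tested transcripts and 0 past 2-fold. Their most counted, TGFA-201, which encodes a ligand of EGFR, had 576 and 579 counts in EtOH and 681 and 723 in HgCl2, a log2 fold change of 0.43 (0.26 to 0.59). Receptors and adaptors had 8 tested, with 1 higher and 4 lower. Their most counted, PTPN11-201, which encodes the phosphatase SHP2, had a log2 fold change of 0.31 (0.25 to 0.38), and a transcript of the adaptor SHC1, SHC1-209, had 48 and 45 counts in EtOH and 14 and 20 in HgCl2, a log2 fold change of -1.31 (-2.20 to -0.48).

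RAS proteins and their inactivators had 12 tested, with 4 higher and 2 lower. NF1 encodes neurofibromin, the partner of SPRED proteins, and NF1-216, a target of nonsense-mediated decay, had 41 and 44 counts in EtOH and 174 and 176 in HgCl2, a log2 fold change of 2.18 (1.70 to 2.70). The most counted of this list, RASAL2-203, was at 0.16, which became -0.02 when scaled by totals without mitochondrial transcripts. The RAF, MEK and ERK cascade had 12 tested, with 2 higher and 2 lower. MAP2K1-201, which encodes MEK1, had 61 and 58 counts in EtOH and 131 and 144 in HgCl2, a log2 fold change of 1.35 (0.90 to 1.82).

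The other feedback inhibitors had 10 tested, with 1 higher and 2 lower. SPRED3-201, of another SPRED gene, had 146 and 141 counts in EtOH and 44 and 31 in HgCl2, a log2 fold change of -1.79 (-2.35 to -1.26), opposite in direction to SPRED1-201 and SPRED2-201. CBL-201, which encodes a ubiquitin ligase of EGFR, was at 0.12 and at -0.05 without mitochondrial transcripts. The ERK-responsive genes outside the 10 had 11 tested, with 0 higher and 6 lower, and with at least 30 counts 0 of 5 were past 2-fold. The most counted, CCND1-201, which encodes cyclin D1, had 4902 and 4868 counts in EtOH and 7444 and 7428 in HgCl2, a log2 fold change of 0.75 (0.70 to 0.80). The median log2 fold change of those 5 transcripts was 0.02, beside 0.21 over all 7107 well-counted transcripts. Over the 6 lists together 8 transcripts were higher and 16 lower, to be read against the 19.4% and 34.3% of all transcripts. With limma on log2(FPKM + 1) they were 8 and 8.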

How the data were processed

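Poly-A RNA was read as pairs from TruSeq libraries of H1299 cells in 2 groups of 2 samples. The authors trimmed the reads, aligned them with STAR 2.5.4b to GRCh38 and counted them per transcript with Rsubread; the deposited counts are not normalized, and the counting options are not given in the sources used here. The study calls the libraries directional, but the labels name a standard TruSeq protocol and no source used here says that counting used strand, so reads of overlapping antisense genes may be mixed. For FPKM, the authors used DESeq2 1.26.0, which scales by median ratios, and deposited the result.

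Columns were assigned by group and replicate number. Gene names, transcript classes and own bases were taken from GENCODE 44 (GRCh38), which is newer than the annotation the reads were counted on; 98.3% of the identifiers matched. Log2 fold changes are ratios of mean counts scaled by TMM (edgeR 4.0.16, R 4.3.3) and were read for transcripts whose mean FPKM was above 1 in a group. The edgeR quasi-likelihood fit was run on the columns as replicates, but each group counts as 1 sample, so its p-values are not given as tests of the conditions. Alternatives used DESeq2 1.42.0 and limma 3.58.1, other scalings and filters, the replicate block, and leaving out each column. The calculation was checked on simulated counts. Sequences and figures were handled in Python 3.11.15.

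Members and lists were chosen with earlier results of these data known. Named transcripts are the most counted of each member gene, the members with a mean of at least 10 counts or an FPKM above 1, and, in the pathway lists, the most counted of each and those at least 2-fold different with a mean of at least 30 counts, some of which are not reported here. Neighbours of ERRFI1 are the 3 coding transcripts on either side with a mean of at least 200 counts. Shares of a transcript in its gene were added after the data were seen, for every member gene with 2 tested transcripts.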

Additional observations from a re-analysis of the deposited data

How the results depend on the processing

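Intervals cover counting error only; low counts limit DUSP6-204, SPRED2-204 and SPRED1-202. The number of member transcripts past 2-fold, 6 in the report, lay between 5 and 7 under every other scaling, fit and left-out column. It was 6 in the edgeR fit with the replicate block. An edgeR adjusted p was asked as well, but it takes the columns as independent, so its outcome is not used. No FPKM filter gave 11 of 20, and the share over all transcripts is not given here for that setting. The 4 higher ones stayed past 2-fold with at least 30 counts on average or 10 in every column, while the 2 lower ones were then not tested. DUSP5-201 passed 2-fold with median ratios, with no FPKM filter and with limma. The log2 fold change of ERRFI1-201 was 1.40 with median ratios, 1.05 without mitochondrial transcripts, and 1.40 with limma on log2(FPKM + 1) and log2(FPKM + 0.1), and lay between 1.22 and 1.23 with a column left out. Transcripts of the 6 pathway lists past 2-fold numbered 24 of 56, where 53.7% of all tested transcripts were past it. They were 16 of 56 (8 higher, 8 lower) with limma on log2(FPKM + 1). No FPKM filter gave 84 of 122, and 10 counts in every column gave 7 of 37. With a mean of at least 30 counts 2 of 34 were higher and 3 lower, against 15.6% and 9.55% of all such transcripts. For the other settings the share over all transcripts is not given here, so nothing is read from these numbers about the lists.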
